A study of Mus musculus with 10 samples.

Results

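The data were the signals of 10 genes of the myeloid lineage in sorted medullary thymic epithelial cells (mTECs), measured on 10 Affymetrix arrays. The genes were Mpeg1, Csf1r, Flt3, Lyz2, Cd68, Ptprc, Fcer1g, Tyrobp, Adgre1 and Cd52. They were found through the platform annotation as the probe sets with 1 gene symbol, which gave 13 probe sets out of 34958 with 1 symbol, for 10 genes out of 18194. The set asks whether these genes move together between genotypes, as RNA from myeloid cells carried along in the sort would. From the labels, 5 arrays held RNA of wild-type (WT) mice and 5 of mice lacking the transcription factor Fezf2 (KO), all on a C57BL/6 background and 3 weeks old. In both groups the cells had been sorted from thymus as CD45-, EpCAM+ and CD80hi. The labels do not say how Fezf2 was deleted, in which cells, or whether each array came from a separate mouse, so each p-value below refers to array-to-array spread that may be technical. The sample titles number the WT arrays 1 to 5 and the KO arrays 6 to 10, and these numbers are used here.

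Myeloid cells of the thymus are macrophages, which engulf dying thymocytes, and dendritic cells, which present antigen. Csf1r and Flt3 are growth factor receptors of these lineages, Fcer1g and Tyrobp are adaptors that pass on signals from many surface receptors through an ITAM, a tyrosine motif that recruits the kinase Syk, and the other genes mark the cell surface or the phagolysosome. Medullary thymic epithelial cells themselves transcribe at low level many genes typical of other tissues and cell types, to which developing T cells are then exposed.

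Each value is a linear signal per probe set as the authors deposited it, and a probe set's level says nothing about its level relative to another probe set. The 40th percentile of the probe sets on an array lay between 21.6 and 22.1, the median between 36.5 and 38.0 and the 90th percentile between 556.7 and 576.4. Of the 13 probe sets, 12 exceeded the 40th percentile on every array, and the other, a weaker probe set of Ptprc, did so on none. The Fezf2 probe set followed the labels, with a mean of 5475 ± 350 (SD) over the 5 WT arrays and 15.0 ± 2.77 over the 5 KO arrays (log2 change -7.47, SE 0.07, limma adjusted p = 1.1e-14; exact two-sided permutation p = 0.00794, the smallest that 5 against 5 arrays allow). The KO signals were below the 40th percentile of their arrays, and the WT mean was 247-fold above the highest of those percentiles. Epcam, part of the sort, was 7344 ± 232 and 7695 ± 261, and the 3 tested probe sets of Cd80, another part, had log2 changes between -0.17 and 0.19 that did not pass. The brightest probe set of the X-inactivation transcript Xist was between 5304 and 6100 on 4 WT and 3 KO arrays and between 21.1 and 29.97 on WT 2, KO 6 and KO 8.

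The 10 genes did not move in 1 direction. Mpeg1 rose more than any other of the 14087 genes tested, Fcer1g, Adgre1, Flt3, Csf1r, Lyz2 and Cd52 fell, and Cd68, Ptprc and Tyrobp did not pass the test (limma on log2(signal + 16), Benjamini-Hochberg adjusted p under 0.05). By probe set, 1 of the 12 tested was higher in KO cells and 7 were lower, where 12% of all 23581 tested probe sets were higher and 12.7% lower. By gene, with each gene represented by its brightest probe set, 1 of 10 was higher and 6 were lower, against 13% and 16.2% of all genes. The median log2 change of the 10 genes was -0.43, and that of all genes was -0.03. The KO signals lay entirely above the WT signals for 1 of the 12 probe sets and entirely below them for 5, against 9.57% and 9.69% of all probe sets tested. By gene these counts were 1 and 5 of 10, against 10.1% and 12% of all genes. With no filter on low signals, 1 of the 13 probe sets was higher and 6 were lower, against 7.9% and 8.8% of all 34958. In RNA from a sorted population, fewer cells of a type and less RNA per cell cannot be told apart.

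**Figure D1:**
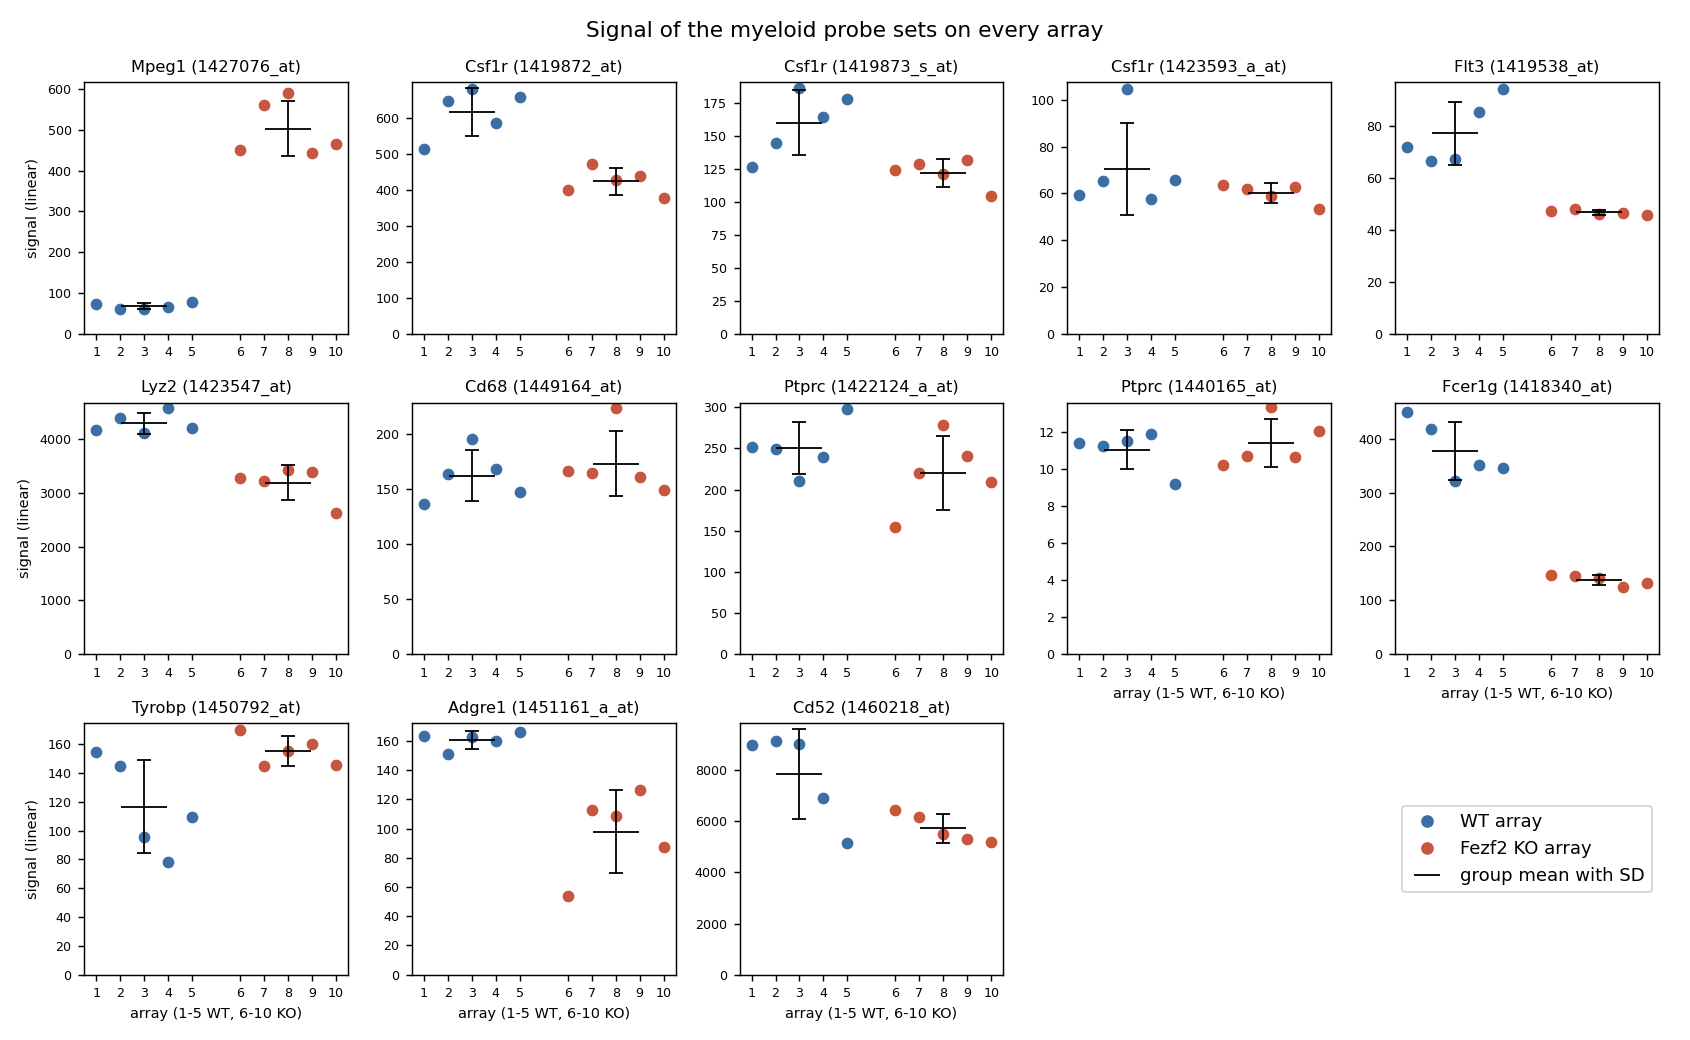
Signal (linear scale, vertical axis from 0) of the 13 probe sets of the 10 myeloid genes on each array (horizontal axis, 1 to 5 WT and 6 to 10 KO), with the group mean and SD in black. Mpeg1 lies between 59.6 and 78.6 in WT and between 444 and 590.04 in KO cells, while Fcer1g lies between 322 and 450.4 in WT and between 124 and 147 in KO cells.

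Mpeg1 encodes perforin-2, a pore-forming protein that macrophages direct against engulfed bacteria. Its signal was 73.6, 59.6, 61.6, 66.0 and 78.6 on WT 1 to WT 5. On KO 6 to KO 10 it was 452, 560.3, 590.04, 444 and 466. Each KO array was thus more than 5 times above every WT array, and the WT signals lay above the median of their arrays. The means were 67.9 ± 8.04 and 502.5 ± 67.7 (SD, n = 5 each), a rise of 6.16-fold on the log2(signal + 16) scale, which is less than the ratio of the means (log2 change 2.62, SE 0.10, adjusted p = 2.82e-08). Leaving out single arrays moved the log2 change between 2.56 and 2.67.

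Fcer1g, the common gamma chain of Fc receptors, went the other way. Its WT signals were 450.4, 418, 322, 351 and 345, and its KO signals were 147, 146, 141, 124 and 132. The lowest WT array was more than 2 times above the highest KO array. The mean fell from 377 ± 54.4 to 138 ± 9.53, or 2.54-fold on the log2(signal + 16) scale (log2 change -1.35, SE 0.09, adjusted p = 1.65e-06), the 59th largest fall among the 14087 genes.

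Because these genes carry the largest rise and the largest fall of the set, their promoters are shown, from 250 bases before to 50 after the annotated start (RefSeq, build GRCm38.p6, 5′ to 3′ on the gene's strand). Capitals would mark matches, on either strand, to GAGGAA, the purine-rich box known for the myeloid factor PU.1, to AGGAAGT, a site shape of the same ETS family, or to GGAA followed after 2 bases by GAAA, the composite shape of ETS and IRF factors. The window of Mpeg1 lies at chr19:12460520-12460819 on the plus strand, and that of Fcer1g at chr1:171234300-171234599 on the minus strand.
Mpeg1: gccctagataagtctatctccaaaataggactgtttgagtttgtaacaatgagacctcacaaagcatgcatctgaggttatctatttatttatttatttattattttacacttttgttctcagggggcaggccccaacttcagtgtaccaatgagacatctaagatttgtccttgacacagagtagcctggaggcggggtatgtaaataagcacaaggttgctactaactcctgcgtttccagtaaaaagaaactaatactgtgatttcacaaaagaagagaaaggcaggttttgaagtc
Fcer1g: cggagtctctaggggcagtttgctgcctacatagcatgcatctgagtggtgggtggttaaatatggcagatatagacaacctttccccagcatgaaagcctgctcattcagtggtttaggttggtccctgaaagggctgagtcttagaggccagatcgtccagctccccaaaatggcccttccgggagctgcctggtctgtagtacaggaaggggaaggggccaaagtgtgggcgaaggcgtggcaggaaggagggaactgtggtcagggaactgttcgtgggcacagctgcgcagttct
Neither window held any of the 3 letter strings, which 28.3%, 9.35% and 2.72% of 32851 RefSeq promoter windows held. A string absent from a window says nothing about binding.

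Tyrobp, the adaptor DAP12 that works much as Fcer1g does, did not pass the test. The WT signals were 154, 144.6, 95.6, 78.5 and 109, and the KO signals were 170, 144.8, 155, 160.3 and 145. WT 1 lay within the KO range and the other WT arrays below it, WT 2 just below. The means were 116 ± 32.2 and 155 ± 10.6 (log2 change 0.40, SE 0.14, adjusted p = 0.0607). The change passed without WT 1 (0.50, adjusted p = 0.0167) or without WT 2 (0.48, adjusted p = 0.0344), and also without both WT 1 and KO 6 (0.47, adjusted p = 0.024), and its adjusted p was between 0.0783 and 0.131 without each of the other arrays.

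Receptors that use these adaptors, and the kinases below them, were counted together. Of 31 genes listed, 28 were on the array and 19 were tested, of which 1 was higher and 7 were lower, against 13% and 16.2% of all genes. Their median log2 change was -0.14. Some of these genes, such as Fcgr3 and Fcer1a, are counted again in other lists below. Fcgr3, a low-affinity receptor for IgG that needs Fcer1g, rose from 86.5 ± 12.1 to 201 ± 19.0 (log2 change 1.08, SE 0.09, adjusted p = 6.23e-06), with no overlap between genotypes. Of the list, 3 genes were higher without KO 6 or with WT 1 and KO 6 as a block. Clec7a, the fungal glucan receptor dectin-1, fell from 245 ± 19.9 to 125 ± 18.3 (log2 change -0.89). Fcer1a, the IgE-binding chain that pairs with Fcer1g, fell from 68.9 ± 12.95 to 31.1 ± 10.4 (-0.86), and the phospholipase gene Plcg2 fell from 554 ± 54.8 to 447 ± 25.1 (-0.30). Trem1, Trem3, Clec5a, Clec4d, Clec4e, Fcgr4, Sirpb1a, Cd300lb and Klrk1 were below the 40th percentile on every array. Syk, the kinase recruited by both adaptors, had a log2 change of 0.16 (adjusted p = 0.481).

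Both growth factor receptors were lower in KO cells. For Flt3, the receptor that supports dendritic cell development, the WT signals were 72.2, 66.6, 67.3, 85.7 and 94.6, and the KO signals were 47.5, 48.1, 46.2, 46.7 and 45.6. All KO arrays lay within 3 units of each other and below every WT array, and above the array median of about 37. The means were 77.3 ± 12.3 and 46.8 ± 0.99 (log2 change -0.56, SE 0.09, adjusted p = 5.74e-04).

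Csf1r, the receptor for the macrophage growth factors CSF1 and IL-34, had 3 probe sets, which differed in their change. The brightest was 514, 648, 680.1, 586 and 657 in WT and 401, 474, 428, 439 and 378 in KO cells, without overlap. Its means were 617 ± 67.2 and 424 ± 36.7 (log2 change -0.52, SE 0.09, adjusted p = 9.48e-04). The probe set with the suffix _s_at, which marks sequence shared with other transcripts, was 160.0 ± 24.7 and 122 ± 10.6 with overlap (-0.34, SE 0.10, adjusted p = 0.0287), and it no longer passed without WT 3, WT 4, WT 5, KO 8 or KO 10 (adjusted p 0.0586 to 0.0713). The dimmest probe set was 70.4 ± 19.5 and 60.2 ± 4.11 (-0.16, SE 0.12, adjusted p = 0.384), and WT 3, at 104.8, stood above the other WT arrays, at 57.5 to 65.7.

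The ligands and signalling genes around these receptors were divided. Of 18 listed, 17 were on the array and 15 were tested, 4 of them higher and 5 lower, where 13% and 16.2% of all genes were. Their median log2 change was -0.18 (-0.22 to -0.12 with 1 array left out). Inpp5d, a phosphatase that restrains growth factor signals in blood cells, fell from 335 ± 59.3 to 189.8 ± 22.6 (log2 change -0.76, adjusted p = 4.15e-04), although its second probe set gave -0.21 and did not pass. Cish, a feedback inhibitor of cytokine receptors, fell from 919.9 ± 71.2 to 655 ± 60.3 (-0.48), and Csf2ra, a chain of the GM-CSF receptor, from 147.5 ± 4.24 to 107 ± 13.7 (-0.42), with 0.03 for its second probe set. Il34, the epithelial ligand of Csf1r, is among the 4 but was below the 40th percentile on every WT array and tested only through its KO signals, so its values are given without a fold, 19.7 ± 1.88 in WT and 32.0 ± 5.40 in KO cells. Csf1, the other ligand, was 586 and 578 (adjusted p = 0.845).

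**Figure D2:**
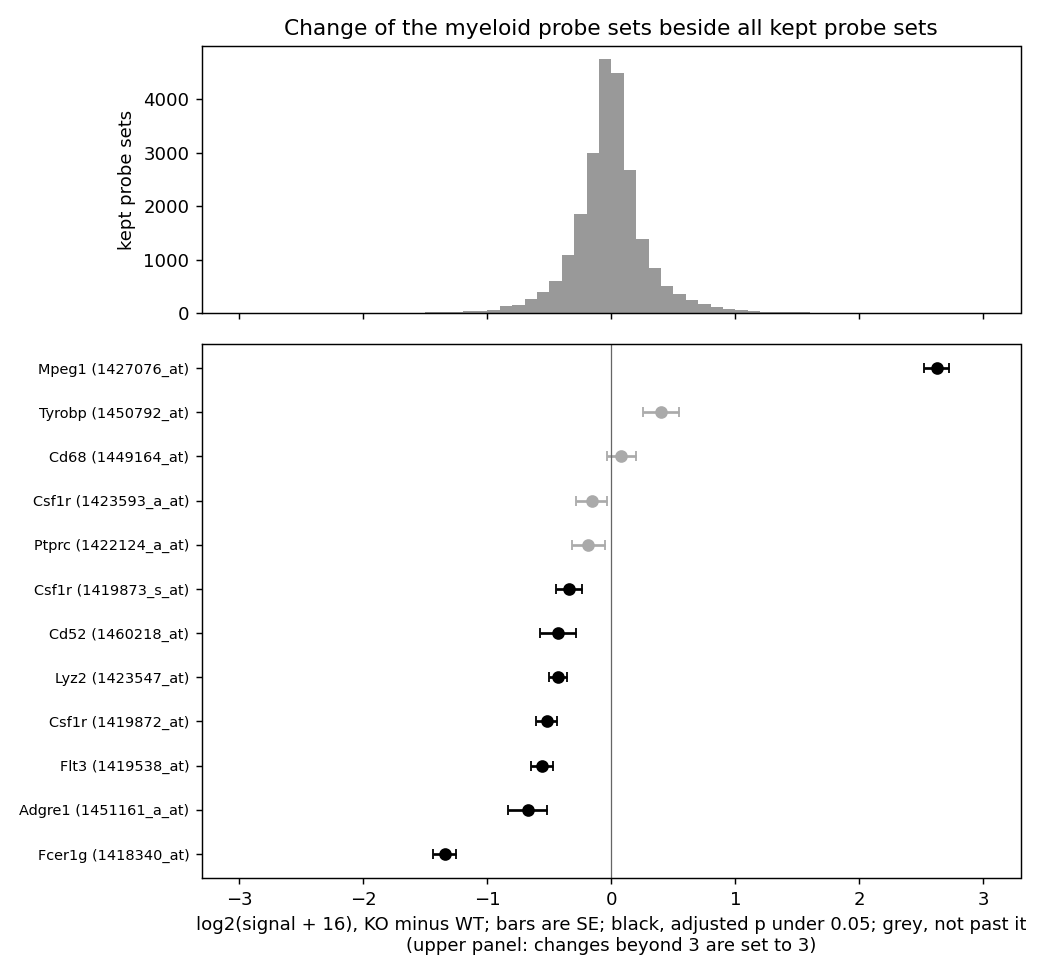
Upper panel, number of kept probe sets by log2 change (KO minus WT, log2(signal + 16)) for all 23581 tested probe sets. Lower panel, log2 change with SE for the 12 tested probe sets of the myeloid genes, black where the adjusted p was under 0.05, with Mpeg1 at 2.62 and Fcer1g at -1.35 as the ends.

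Surface markers fell or did not pass. Adgre1, the macrophage marker F4/80, was 163, 151, 163, 159.9 and 166 in WT and 53.6, 113, 109, 127 and 87.6 in KO cells. The WT arrays were close together, and every KO array lay below them, KO 6 the lowest. The means were 161 ± 5.93 and 97.9 ± 28.4 (log2 change -0.67, SE 0.16, adjusted p = 0.0086). Without KO 6 the change was -0.51 (adjusted p = 0.00145), and the adjusted p reached at most 0.0213 when another array was left out.

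Ptprc, or CD45, is the leukocyte phosphatase against which the cells were sorted. Its main probe set was 252, 249, 210.3, 240.1 and 298 in WT and 155, 219.7, 278, 241 and 209 in KO cells, with the genotypes mixed. The means were 250.0 ± 31.6 and 220.5 ± 45.1 (log2 change -0.18, SE 0.13, adjusted p = 0.347), and the lowest signal was on KO 6, without which the change was -0.07. The second probe set lay between 9.18 and 13.4 on all arrays, below their 40th percentile.

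Cd52 encodes a very short glycoprotein of the lymphocyte and monocyte surface, also known from the male reproductive tract. Its WT signals were 8990, 9142, 9026, 6911 and 5154, and its KO signals were 6429, 6167, 5501, 5291 and 5192. It was among the brightest probe sets on the arrays, at the 99.5th percentile by mean signal, and WT 5 lay below every KO array. The means were 7845 ± 1768 and 5716 ± 551 (log2 change -0.43, SE 0.14, adjusted p = 0.0483). It held when WT 5 was left out (-0.57, adjusted p = 0.00166) and was lost when any other single array was (adjusted p 0.051 to 0.111).

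Of the phagolysosome genes, lysozyme was lower and Cd68 was not. Lyz2, the lysozyme of macrophages and granulocytes, was 4169, 4391, 4110, 4575 and 4210 in WT and 3278, 3221, 3420, 3393 and 2622 in KO cells. The groups did not overlap, and KO 10 lay below the other KO arrays. The mean fell from 4291 ± 190.3 to 3187 ± 326 (log2 change -0.43, SE 0.07, adjusted p = 9.81e-04). Cd68, a glycoprotein of the lysosomal membrane, was 137, 164, 196, 169 and 147 in WT and 167, 165, 224.3, 161 and 149 in KO cells, and its groups overlapped (log2 change 0.08, SE 0.11, adjusted p = 0.647). Without KO 8, the highest array, the change was -0.01.

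Lyz1 is the neighbouring copy of Lyz2 on chromosome 10, with 5522 bases between the annotated genes, and signals of the pair may be mixed. Its probe sets with the suffix of shared sequence fell from 10580 ± 451 to 7711 ± 654 (log2 change -0.46, adjusted p = 1.95e-04) and from 6131 ± 418 to 4095 ± 448 (-0.58, adjusted p = 1.93e-04). Its other probe set lay between 15.3 and 23.2 on all arrays and was not tested. Since the annotated probe sets of both copies fell by similar amounts, the promoters are set side by side, Lyz2 at chr10:117282223-117282522 and Lyz1 at chr10:117292819-117293118, both on the minus strand, with the match to AGGAAGT, read on the other strand, in capitals.
Lyz2: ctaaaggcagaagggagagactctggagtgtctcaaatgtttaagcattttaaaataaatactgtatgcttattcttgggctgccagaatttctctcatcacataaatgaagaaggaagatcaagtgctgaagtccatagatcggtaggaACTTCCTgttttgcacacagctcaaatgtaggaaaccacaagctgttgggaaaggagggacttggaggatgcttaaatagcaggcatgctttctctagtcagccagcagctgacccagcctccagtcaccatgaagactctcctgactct
Lyz1: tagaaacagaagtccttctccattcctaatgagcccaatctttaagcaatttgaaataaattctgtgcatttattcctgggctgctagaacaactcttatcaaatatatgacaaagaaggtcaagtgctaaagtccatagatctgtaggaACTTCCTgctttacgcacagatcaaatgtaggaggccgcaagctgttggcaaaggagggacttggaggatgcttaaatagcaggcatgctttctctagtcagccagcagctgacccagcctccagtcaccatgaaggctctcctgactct
Without gaps, 201 of the 300 bases were identical, and 115 of the 120 at the end nearest the gene. The match to AGGAAGT stood at the same place in both.

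Other genes of the phagocyte moved in both directions. Of 20 genes of the oxidase and the lysosome, 17 were on the array and were tested, 6 of them higher and 6 lower, where 13% and 16.2% of all genes were. The median log2 change was 0.02. Cybb, the catalytic subunit of the phagocyte NADPH oxidase, fell from 727 ± 78.2 to 307 ± 54.1 (log2 change -1.21, adjusted p = 1.07e-05), with its 3 probe sets between -1.21 and -1.15. Cyba, Ncf1 and Rac2, further parts of that oxidase, were lower by 0.32, 0.36 and 0.58 on the log2 scale (log2 changes -0.32, -0.36 and -0.58), and Ncf4 had a change of -0.04 that did not pass. Lyz1 and Gpnmb, a glycoprotein of phagocytes and pigment cells, were the other genes that were lower. The call of Lyz1 rests on its probe sets of shared sequence, so it may hold signal of Lyz2. The lysosomal protease gene Ctsd rose from 498 ± 25.1 to 1509 ± 113 (1.57, adjusted p = 1.9e-08) and the lysosomal membrane gene Lamp1 from 3799 ± 389 to 7943 ± 259 (1.07, adjusted p = 5.97e-07). Lamp2, Ctsb, Ctss and Lgmn were the other genes that rose, by 0.55, 0.37, 0.30 and 0.47. Apart from Cybb, Ctsd and Lamp1, these genes are named to complete the list and were chosen after their values were seen.

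Some markers of macrophages and dendritic cells were higher and some lower in KO cells. Of 24 macrophage and monocyte markers, 23 were on the array and 19 were tested, 4 of them higher and 4 lower, against 13% and 16.2% of all genes. Their median log2 change was 0.06. Besides Fcgr3, the apoptotic cell receptor gene Timd4 rose from 23.4 ± 0.29 to 47.5 ± 10.6 (0.67) and the complement gene C1qb from 276 ± 9.40 to 455 ± 93.0 (0.67). C1qa and C1qc did not pass (0.16 and 0.20). The mannose receptor gene Mrc1 fell from 395 ± 52.3 to 248 ± 32.2 (-0.64). Slc11a1, Cd14 and Cd163 were the other genes that were lower (-0.53, -0.33 and -0.45). Itgam, or CD11b, lay between 24.6 and 40.5 in WT and between 35.1 and 59.4 in KO cells, and rose (0.47, adjusted p = 0.0106). Cx3cr1, Vsig4, Clec4n and Fcgr4 were below the 40th percentile on every array. The signals summed over the list were 2503 to 2694 in WT and 2499 to 2836 in KO cells. Without KO 6, 6 were higher and 3 lower, and without WT 4, KO 7, KO 8 or KO 10, 2 were lower.

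Of 18 dendritic cell genes, 15 were on the array and 12 were tested, 4 of them higher and 2 lower, against 13% and 16.2% of all genes. The median log2 change was -0.08 (-0.12 to -0.03 with 1 array left out). Tcf4, a factor of plasmacytoid dendritic cells that is also widely expressed, rose from 347 ± 25.8 to 646 ± 55.8 (0.87). Ccr9 and Sirpa also rose, from 223.8 ± 13.97 to 292.4 ± 35.5 (0.36) and from 74.0 ± 6.30 to 95.8 ± 10.5 (0.31). Bcl11a was the other higher gene (0.24), but none of its 5 probe sets passed in the fit of all probe sets. Siglech, a receptor of plasmacytoid cells, fell from 30.6 ± 1.72 to 24.8 ± 1.33 (-0.19), signals close to the 40th percentile. Irf8 was the other lower gene (-0.38). Itgax, or CD11c, was above the 40th percentile on 2 of the 10 arrays and Xcr1 on none. The summed signals were 3478 to 3956 in WT and 3035 to 3813 in KO cells. Without Irf8, the brightest gene of the list, they were 1819 to 1908 and 2028 to 2304, with every KO array above. These sums still hold Tcf4, which alone gave means of 347 and 646, so the separation cannot be read as a rise of the list. The number lower was 1 without WT 3, WT 4 or WT 5 and 3 without KO 8.

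Of 18 transcription factors of the myeloid lineage, 16 were on the array and 15 were tested, 4 of them higher and 3 lower, where 13% and 16.2% of all genes were. The median log2 change was -0.18 (-0.25 to -0.12 with 1 array left out). Leaving out any 1 array gave 1 or 2 lower, and a block for WT 1 and KO 6 gave 5. Spi1, which encodes PU.1, lay between 36.5 and 55.7 in WT and between 31.2 and 42.5 in KO cells (log2 change -0.23, adjusted p = 0.0896). Nr4a1, an immediate early nuclear receptor, rose from 589.5 ± 66.2 to 1154 ± 214 (0.94). Runx1, Maf and Klf4 also rose on their brightest probe sets (0.62, 0.30 and 0.49). Irf8, a factor of dendritic cells and monocytes, was lower (1833 and 1422, -0.38, adjusted p = 0.0258). Cebpb and Runx3 were lower as well on their brightest probe sets (-0.58 and -0.28).

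Genes shared by most leukocytes were lower more often than higher. Of 24 listed, 22 were on the array and 20 were tested, of which 11 were lower and 3 higher, against 16.2% and 13% of all genes. Over the list, the median log2 change was -0.36. The tyrosine phosphatase gene Ptpn22 fell from 553.5 ± 62.7 to 230.5 ± 13.5 (log2 change -1.20, adjusted p = 9.2e-07), the integrin gene Itgal from 269 ± 29.2 to 145.5 ± 18.3 (-0.82) and Cytip, which regulates integrin adhesion, from 471 ± 41.8 to 311 ± 29.4 (-0.58). Cd53, a tetraspanin of leukocytes, rose instead, from 86.0 ± 9.92 to 266 ± 54.2 (1.45, adjusted p = 4.28e-06). Itgb2, the partner chain of Itgal and Itgam, had a change of 0.25 that did not pass (adjusted p = 0.246). Laptm5, a lysosomal protein of blood cells, fell from 5160 ± 363 to 4108 ± 257 on its brightest probe set (-0.33), with 4 probe sets between -0.64 and 0.10. The summed signals were 13330 to 15490 in WT and 10480 to 11990 in KO cells. Such a sum is weighted towards bright probe sets, and Laptm5 gave 5160 of the WT mean of 14380. Without Laptm5 the sums were 8276 to 9765 and 6036 to 7862, again with every KO array below.

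**Figure D3:**
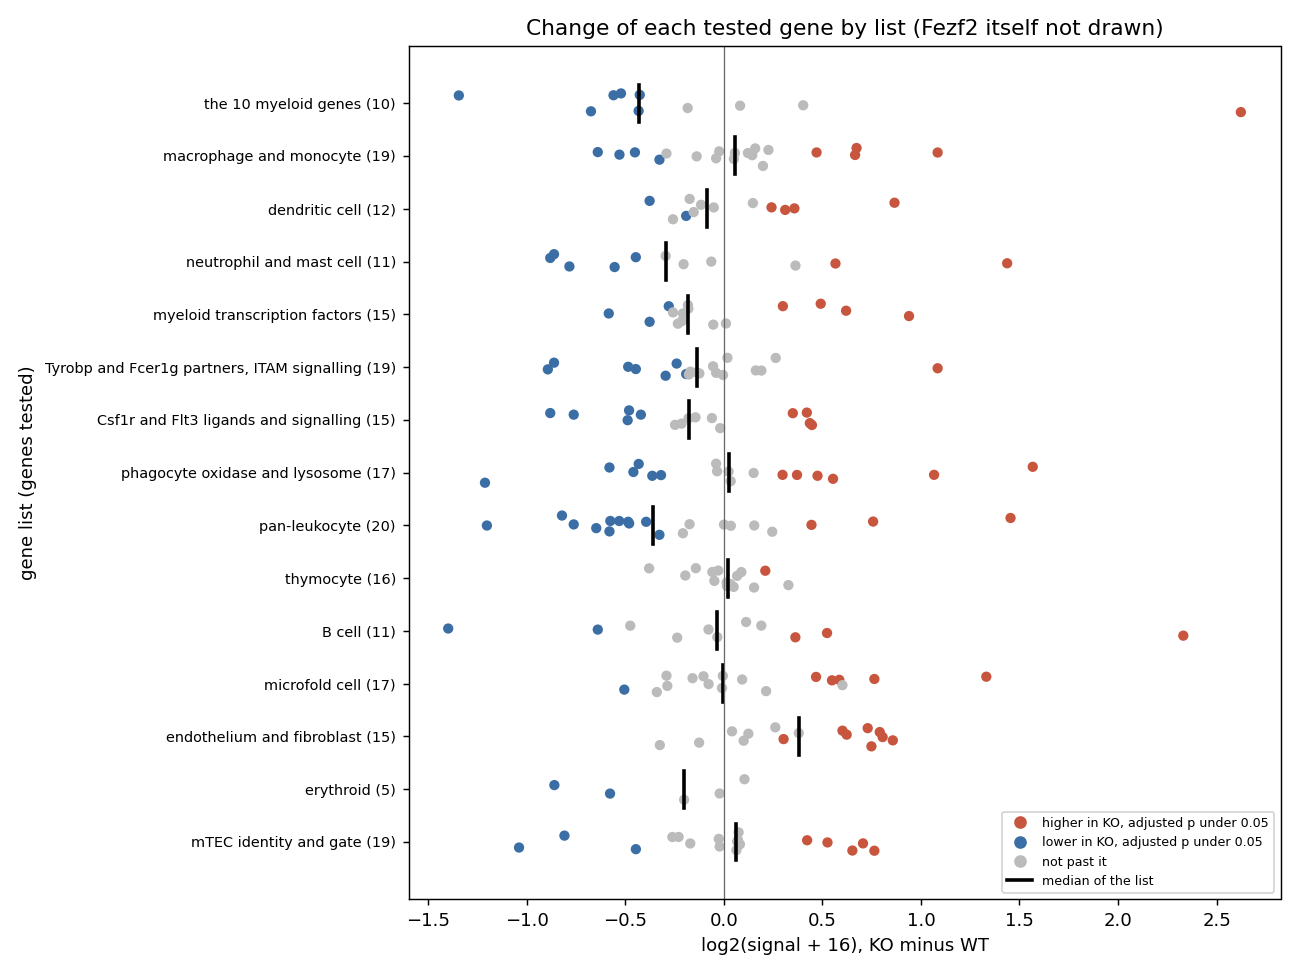
Log2 change (horizontal axis, KO minus WT, log2(signal + 16)) of every tested gene in 15 lists, 1 row a list with the number of genes tested, coloured by direction where the adjusted p was under 0.05 and grey otherwise, with the list's median as a bar. The 10 myeloid genes span -1.35 to 2.62, and the macrophage and dendritic cell rows have points on both sides of 0. Fezf2 itself is counted in its list but not drawn.

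Most thymocyte markers did not pass the test. Of 21 thymocyte genes, 18 were on the array and 16 were tested. Of these, 1 was higher and none was lower, against 13% and 16.2% of all genes. The higher gene was Zap70 (log2 change 0.21, adjusted p = 0.0248, with -0.05 for another probe set). This call was lost without WT 3, KO 8 or KO 9, and 3 genes were higher without KO 6. Cd3e was 60.6 ± 4.51 and 62.3 ± 9.51 (adjusted p = 0.853), and the B cell receptor gene Cd79a exceeded the 40th percentile on 1 of the 10 arrays. The summed thymocyte signals were 1600 to 2060 in WT and 1197 to 2177 in KO cells, the lowest on KO 6, which was also lowest among KO arrays for Ptprc and Adgre1. The part of carried-along leukocytes in the changes of the 10 genes was not tested.

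Within a genotype, no array was high for all 10 genes. With each gene represented by its brightest probe set, WT 1 to WT 5 lay above the WT mean for 6, 7, 4, 3 and 5 of the 10 genes, and KO 6 to KO 10 above the KO mean for 5, 8, 8, 5 and 0. KO 10 was thus below the KO mean for all 10 genes, by 0.03 to 0.27 on the log2 scale, and the lowest KO array for 5 of them. KO 8 was the highest KO array for 4 genes, WT 5 the highest WT array for 4.

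Which arrays were high or low differed between genes. WT 1 and WT 2 were the highest WT arrays for both Fcer1g and Tyrobp, but WT 1 was the lowest WT array for Csf1r and Cd68. KO 6 was the lowest KO array for Ptprc and Adgre1 and the highest for Fcer1g, Tyrobp and Cd52. WT 1 and WT 2 also had the highest WT signals of S100a8, a calcium-binding protein of neutrophils that epithelia make as well, at 6288 and 5940 against 3826 to 4198 on the other WT arrays. No correlation within a genotype was computed, since each holds only 5 arrays.

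**Figure D4:**
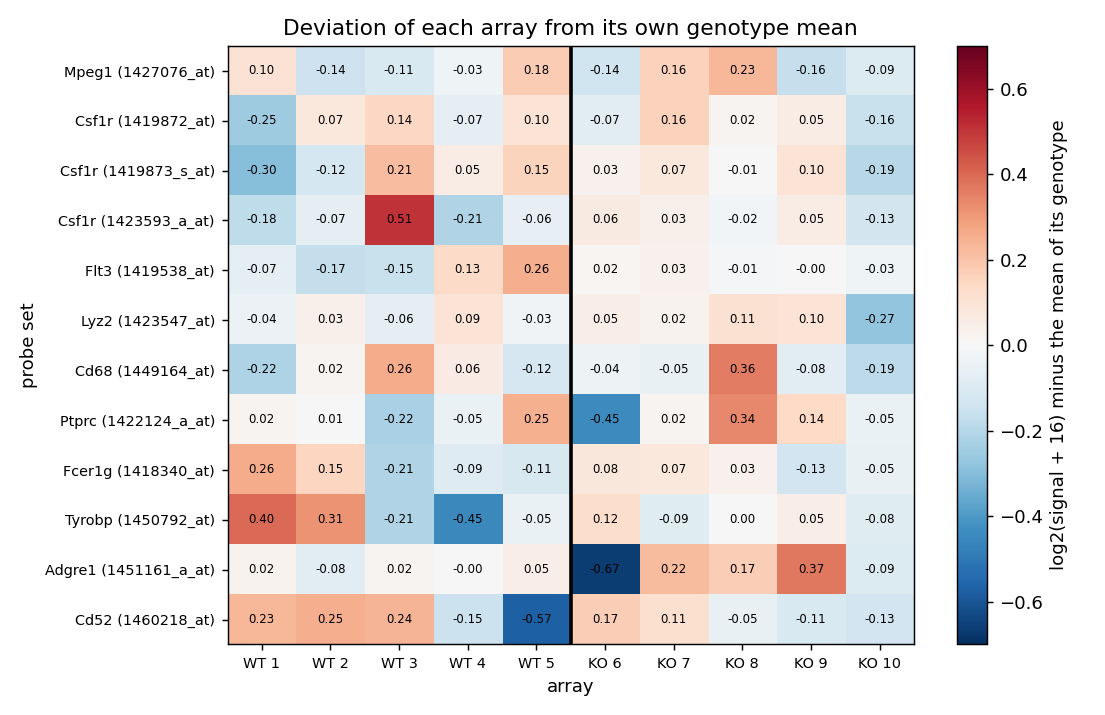
Deviation of each array (columns) from the mean of its own genotype, in log2(signal + 16), for the 12 tested probe sets (rows), red above and blue below, with the value in each cell. The largest deviations are -0.67 for Adgre1 on KO 6 and -0.57 for Cd52 on WT 5, and KO 10 is below the mean in every row.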

How the data were processed

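The deposited table holds linear signal intensity for 45101 probe sets on 10 arrays, and the submitters' processing notes name MAS5 alone, with no version. The scaling, background step and filter behind the deposited intensity values are not stated in these sources, and detection calls were not used. The annotation gave 34958 probe sets 1 gene symbol, 932 several and 9211 none. Symbols were updated by Entrez identifier through RefSeq (GRCm38.p6).

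Probe sets above the 40th percentile of their array on at least 5 of 10 arrays were kept (23581; when 1 array was left out, on at least 4). Signals were fitted as log2(signal + 16), KO minus WT, with limma 3.58.1 in R 4.3.3 (eBayes with trend and robust estimation, no further normalization) and Benjamini-Hochberg adjustment over all tested probe sets; fold changes on this scale understate those of low signals. Values of the 10 genes come from this fit. Values of other listed genes come from the same fit with 1 probe set a gene, that of the highest mean (14087 genes). The procedure was tested on simulated data. Precision is limited by the number of arrays.

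The 10 genes and 14 further lists (macrophage and monocyte, dendritic cell, neutrophil and mast cell, myeloid transcription factors, adaptor partners, growth factor signalling, phagocyte oxidase and lysosome, pan-leukocyte, thymocyte, B cell, microfold cell, endothelium and fibroblast, erythroid, mTEC identity) were chosen with earlier results of these data known. Some genes, such as Inpp5d, Rac2, Kit and Irf8, are in more than 1 list, so the counts of the lists are not independent. Named genes are the 10, Fezf2, Lyz1, 10 lineage genes, and up to 4 genes a list that passed, those of smallest adjusted p; any other was chosen after its values were seen. The alternatives tried were quantile normalization, median centring, an offset of 1 or 64, no filter or the 60th percentile, no probe sets with suffixes, plain eBayes, array weights, a threshold of 0.01, averaged probe sets, WT 1 and KO 6 (which stood apart in earlier results) left out or as a block, and each array left out; those for the lists, including sums without the brightest gene, were chosen after seeing the data.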

Additional observations from a re-analysis of the deposited data

Results flagged for a closer look

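In 58 groups of 5 arrays examined (the probe sets of the 10 genes, Fezf2 and the summed lists, by genotype), 5 held an array that stood apart from the others by more than Dixon's 95% critical value of 0.71 for the gap over the range. Chance flags about 1 in 20 groups. KO 10 was low for Lyz2, at 2622 against 3221 for the next array. KO 8 was high for Cd68, at 224.3 against 167. WT 3 was high for the dimmest Csf1r probe set, at 104.8 against 65.7. WT 5 was low for the weak Ptprc probe set, at 9.18 against 11.2, below the 40th percentile. KO 6 was low in the summed thymocyte signal, at 1197 against 1911.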

How the results depend on the processing

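Under the alternatives run, Mpeg1, Fcer1g, Flt3, Adgre1, Lyz2 and the brightest Csf1r probe set kept their direction and call, with log2 changes of 2.10 to 2.87 for Mpeg1 and -1.44 to -1.12 for Fcer1g. Cd52 lost its call in 15 of 22 alternatives. The number of probe sets of the 10 genes that were higher was 2 in place of 1, with Tyrobp added, under array weights and with WT 1 and KO 6 left out or as a block, and by gene it was 2 under these and under median centring. Leaving out 1 array gave 1 to 2 higher, by probe set and by gene, 5 to 6 lower by probe set in place of 7, and 5 to 6 by gene in place of 6. Over all probe sets, 1645 were higher and 1579 lower at an adjusted p under 0.01, in place of 2838 and 3003. Among lists, the counts higher in KO cells rose for neutrophil and mast cell genes from 2 to 4 without WT 1 and KO 6, and the B cell genes that were lower rose from 2 to 4. No paired analysis was possible because the arrays of the groups share no replicate numbers. Depth does not apply to arrays, and signals near the 40th percentile may not differ from background.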

Other observations

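In the same arrays, genes of some other cell types moved in both directions. With each gene represented by its brightest probe set, the endothelial and fibroblast genes that passed were all higher. The erythroid genes that passed were all lower. Of 17 neutrophil and mast cell genes, 16 were on the array and 11 were tested, of which 2 were higher and 5 lower, against 13% and 16.2% of all genes. The median log2 change was -0.30, and without KO 6 it was -0.09. Ltf, lactoferrin of neutrophil granules and of secretory epithelia, rose from 886 ± 304 to 2442 ± 896 (1.44), with WT 1 and KO 6 the highest of their groups at 1420 and 4001. Mcpt4, a mast cell protease, fell from 52.65 ± 7.37 to 31.1 ± 8.13 (-0.55), and Kit, the mast cell growth factor receptor, from 538 ± 188 to 271 ± 29.1 (-0.88). The list's summed signals were 9318 to 13580 in WT and 12670 to 16330 in KO cells. Without S100a8, the brightest gene, with means of 4859 and 7062, they were 5493 to 7293 and 6444 to 9105. These sums still hold Ltf. Of 15 B cell genes, 14 were on the array and 11 were tested, 3 of them higher and 2 lower (median -0.03). The shares of all genes were again 13% and 16.2%. Fcer2a, the low-affinity IgE receptor CD23, fell from 972 ± 362 to 344 ± 69.6 (-1.40), and Cd79b, a signalling chain of the B cell receptor, from 229 ± 19.4 to 141 ± 10.2 (-0.64). Btla had the largest change of the list and rose from 79.6 ± 10.3 to 466 ± 57.1 (2.33, adjusted p = 2.09e-08). Ebf1, a B lineage factor, rose from 45.7 ± 4.48 to 72.6 ± 6.25 (0.52), and Ms4a1 also rose (0.36). The summed B cell signals were 2571 to 3417 in WT and 2511 to 2893 in KO cells. Without Fcer2a, the brightest gene, they were 1869 to 2508 and 2134 to 2673, so the lower KO sums rested on that gene.

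Of 16 endothelial and fibroblast genes, 15 were tested and 8 were higher (median 0.38), against 13% of all genes. None was lower, against 16.2% of all genes, although 1 was lower without WT 1 or KO 8. Lum, a matrix proteoglycan, rose from 81.8 ± 4.88 to 162 ± 16.3 (0.86) and Vwf, von Willebrand factor, from 186 ± 19.6 to 318 ± 28.1 (0.73). Pecam1, Egfl7, Emcn, Kdr, Cdh5 and Dcn were the other genes that were higher. The fibroblast genes Col1a1, Col1a2, Col3a1 and Pdgfra did not pass, nor did Tek and Plvap. Pdgfrb did not pass by its brightest probe set. In the fit of all probe sets, 1 of its 2 probe sets was lower (changes -0.33 and -0.26). The summed signals of the list were 3221 to 3864 in WT and 3925 to 4574 in KO cells, and without Dcn, the brightest gene, they overlapped (2201 to 2899 and 2783 to 3128). Of 17 microfold cell genes, 5 were higher and 1 lower, against 13% and 16.2% of all genes. Their median was -0.01, and 2 were lower without WT 1 or WT 5. Tnfrsf11a, which is also in the mTEC list, rose from 425 ± 28.25 to 733 ± 35.2 (0.76). Ccl6 rose from 604 ± 220.5 to 1496 ± 306 (1.33), and Pglyrp1, a peptidoglycan-binding protein, from 483 ± 44.4 to 716 ± 92.5 (0.55). Ccl9 and Ctsh were the other genes that were higher (0.59 and 0.47). The prion protein gene Prnp fell from 7860 ± 658 to 5524 ± 322 (-0.51). Of 10 erythroid genes, 5 were tested and 2 were lower, Car1 (-0.86) and Epb42 (-0.58), against 16.2% of all genes. None was higher, against 13% of all genes. The globin genes Hba-a1 and Hba-a2 were below the 40th percentile on every array. Of 20 genes of mTEC identity and the sort, 19 were tested, 5 of them higher and 4 lower (median 0.06). The shares of all genes were 13% and 16.2%. Fezf2, the deleted gene, is 1 of the 4 that were lower, a call that the genotype fixed in advance. Fas (-1.04) and Ciita (-0.86 to -0.78 over its 3 probe sets) were lower too, and Cdh1 was higher (0.42).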
